A study of Mus musculus and Homo sapiens with 41 samples.

Results

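Chemokine genes, chemokine receptor genes and Gpr65 were followed through a gain and a loss of PLZF, the transcription factor encoded by Zbtb16, in mouse myeloid progenitors. The 9 genes were Ccl3, Ccl4, Ccl5, Ccl6 and Ccl9, which encode secreted CC chemokines, Ccr1 and Cxcr4, which encode signalling chemokine receptors, Ccrl2, which encodes an atypical receptor, and Gpr65, which encodes a proton-sensing receptor. They were picked by name with the values of both expression tables in view, from 53756 genes in the GMP table and 13238 in the 416b table. Their values in both comparisons are therefore a description, and no test is given for them. All 9 were found in both tables.

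RNA-seq was available for a gain and a loss of PLZF. 416b cells, a murine Cd34+ myeloid line, were transduced with a lentivirus for PLZF-Flag or with the Empty vector, both carrying GFP, and GFP+ cells were then sorted, with 1 library per condition. GMPs (Granulocyte-Monocyte Progenitors, bone marrow cells that carry c-Kit, Cd34 and FcγR but neither Sca-1 nor lineage markers) were sorted from lethally irradiated C57BL/6 Cd45-1 mice that had received marrow of WT or Zbtb16lu/lu C57BL/6 Cd45-2 donors, with 2 libraries per genotype. The luxoid (lu) allele inactivates Zbtb16 in the germline of the donor. The gate is given as Cd45+, the Cd45 antibody that the study lists for cytometry is to the donor form (Cd45-2), and the age of the donors is not in the labels. The other 37 of the 41 samples were ChIP-seq, ATAC-seq or other material and were not analysed here.

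Chemokines are small secreted proteins that bind G protein-coupled receptors on leukocytes and direct their movement, and many are induced through NF-kappaB. CCL3, CCL5, CCL6 and CCL9 act on CCR1, among other receptors for some of them. CXCR4 binds CXCL12 and keeps progenitors in the bone marrow. CCRL2 binds chemerin and presents it without signalling through G proteins. GPR65 raises cyclic AMP when the medium turns acidic.

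The genes lie in few places. In mm10, the 5 chemokine genes fall within 138906 bases of chromosome 11, in the order Ccl5 (83525778 to 83530518), Ccl9 (83572919 to 83578636), Ccl6 (83587882 to 83593087), Ccl3 (83647844 to 83649355) and Ccl4 (83662584 to 83664683). Ccl4 is on the plus strand and the other four are on the minus strand. Ccl9 and Ccl6 are neighbours 9245 bases apart. Ccr1 (123962124 to 123968692) and Ccrl2 (111054486 to 111057519) are on chromosome 9, Cxcr4 (128588199 to 128592293) on chromosome 1 and Gpr65 (98268635 to 98276644) on chromosome 12. In the GENCODE annotation, Ccl6 overlaps E230016K23Rik and Gpr65 overlaps Gm47566 on the opposite strand. Whether reads were counted by strand is not given in the sources used here, so reads of these genes and of their antisense partners cannot be told apart.

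The 250 bases before the RefSeq start site (GRCm38.p6, the build of mm10) are printed 5′ to 3′ on the strand of the gene for the members whose values differ most. They are Ccl9 (chr11:83578637-83578886, minus strand), Ccl6 (chr11:83593088-83593337, minus strand), Ccl3 (chr11:83649379-83649628, minus strand), Ccr1 (chr9:123968693-123968942, minus strand) and Gpr65 (chr12:98268385-98268634, plus strand). Ccl6 is shown as the neighbour of Ccl9 with very few reads in 416b cells. RefSeq promoters were found for 7 of the 9 genes, and Ccl4 and Ccl5 were the 2 without one. Capitals mark matches on either strand to the TATA box letters TATAAA, the AP-1 letters TGANTCA, the C/EBP letters TTNNGNAA, the ETS core GGAAGT and the shortened NF-kappaB letters GGGNNTTTC.
Ccl9 upstream region: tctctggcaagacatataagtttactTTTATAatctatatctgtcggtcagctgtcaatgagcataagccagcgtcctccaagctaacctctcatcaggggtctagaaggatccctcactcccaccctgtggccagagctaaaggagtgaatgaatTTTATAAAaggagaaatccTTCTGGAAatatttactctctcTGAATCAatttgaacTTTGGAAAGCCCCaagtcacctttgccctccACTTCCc
Ccl6 upstream region: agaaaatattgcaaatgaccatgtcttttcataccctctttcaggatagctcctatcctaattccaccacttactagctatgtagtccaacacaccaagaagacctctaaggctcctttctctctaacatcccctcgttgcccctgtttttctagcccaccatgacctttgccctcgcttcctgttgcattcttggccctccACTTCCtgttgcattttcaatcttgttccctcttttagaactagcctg
Ccl3 upstream region: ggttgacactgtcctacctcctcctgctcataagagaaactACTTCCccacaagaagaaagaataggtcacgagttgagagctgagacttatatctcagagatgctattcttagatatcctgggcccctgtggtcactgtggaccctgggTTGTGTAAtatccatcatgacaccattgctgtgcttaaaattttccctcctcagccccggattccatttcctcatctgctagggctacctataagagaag
Ccr1 upstream region: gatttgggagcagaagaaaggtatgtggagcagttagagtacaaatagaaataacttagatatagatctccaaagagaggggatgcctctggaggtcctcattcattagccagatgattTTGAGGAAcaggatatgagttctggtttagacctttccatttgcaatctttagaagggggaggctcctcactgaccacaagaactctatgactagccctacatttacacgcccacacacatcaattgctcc
Gpr65 upstream region: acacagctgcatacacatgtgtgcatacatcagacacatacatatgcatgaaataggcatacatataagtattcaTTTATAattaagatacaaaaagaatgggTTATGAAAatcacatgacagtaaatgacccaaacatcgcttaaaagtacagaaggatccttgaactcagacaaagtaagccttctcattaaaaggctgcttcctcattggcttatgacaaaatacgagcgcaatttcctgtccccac

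The Ccl9 region held a match to each of the 5 motifs. These were 3 for the TATA box, 2 for C/EBP and 1 each for AP-1, the ETS core and NF-kappaB, and 2 pairs of these matches overlapped. Of the 32851 promoter windows of the same length, 12.4% held the TATA box letters, 6.75% those of AP-1, 36.8% those of C/EBP, 19.7% those of the ETS core and 3.72% those of NF-kappaB. The Ccl6 region held only 1 ETS core match, and the Ccl3 region held 1 ETS core and 1 C/EBP match. The Ccr1 region held 1 C/EBP match, and the Gpr65 region held 1 TATA box and 1 C/EBP match. A match describes letters in the window and is not evidence of a bound site.

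Zbtb16 was checked first. In 416b cells its reads went from 632 with the Empty vector to 1538 with PLZF-Flag, and the log2 ratio was 2.73 (95% counting interval 2.59 to 2.86). In WT GMPs its normalized counts were 705 and 828, and in Zbtb16lu/lu GMPs they were 369 and 269, a log2 fold change of -1.28. The species of the PLZF cDNA is not in the labels, so the reads on Zbtb16 may not count the whole transgene. GMP markers were high in all GMP libraries (Mpo at least 477326 normalized counts). In 416b cells Mpo had only 12.1 normalized counts with the Empty vector and 3.31 with PLZF-Flag, whereas Kit had 6434 and 7267 and Cd34 had 11059 and 8823. Reads on listed genes came to 54529689 with the Empty vector and 19995819 with PLZF-Flag, and normalized totals were between 38562940 and 40130730 in GMPs. A single read was worth 0.605 normalized counts in the first of these libraries and 1.65 in the second.

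Members were ordered by level per kilobase of exon, since their exons cover 660 bases (Ccl4) to 3045 bases (Ccl9). In GMPs, Cxcr4 and Ccl9 led with means over the 4 libraries of 4336 and 3130 normalized counts per kilobase. Ccl3 followed at 506, Gpr65 at 468, Ccl4 at 170, Ccl6 at 124, Ccrl2 at 95.8 and Ccr1 at 49.2. Ccl5 was last at 3.59. The ranges over the 4 libraries overlapped between Cxcr4 and Ccl9, between Ccl3 and Gpr65, between Ccl4 and Ccl6 and between Ccl6 and Ccrl2, and they did not between the other neighbours. Within each genotype only Ccl3 and Gpr65 and also Ccl4 and Ccl6 overlapped, so these neighbours did not differ beyond their spread. Cxcr4 lay above Ccl9, and Ccl6 above Ccrl2, in both genotypes without overlap.

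In Empty vector 416b cells, Ccl9 was first at 1403 and Cxcr4 second at 490 normalized counts per kilobase. Ccr1 at 66.9, Ccrl2 at 58.9 and Ccl5 at 56.1 came next, with overlapping counting intervals. Ccl3 (31.6) and Ccl4 (24.8) also overlapped, and Gpr65 at 9.36 and Ccl6 at 1.69 were lowest. The GMP and 416b tables were normalized separately and their libraries were made with different kits, so levels are set side by side here only to show each order. Ccl5 was last in GMPs and between Ccrl2 and Ccl3 in 416b cells, and Gpr65 was above Ccl4 in GMPs and below it in 416b cells.

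**Figure D1:**
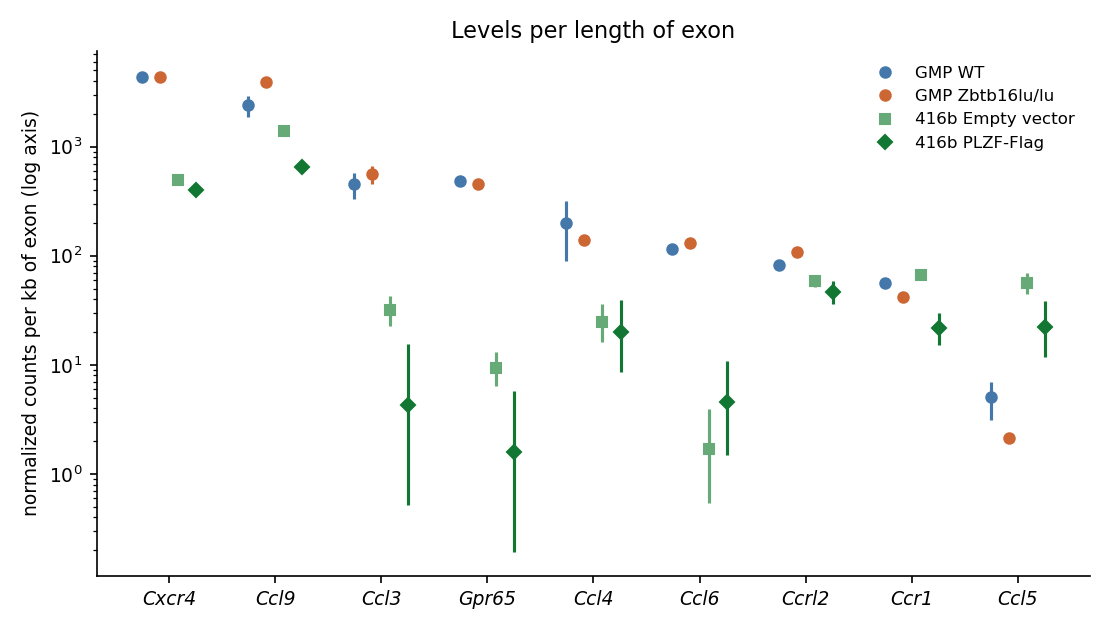
Normalized counts per kilobase of exon (log axis) for the 9 genes, ordered by their mean in GMPs. Circles are means of 2 GMP libraries with their range, and squares and diamonds are single 416b libraries with 95% Poisson counting intervals. Cxcr4 and Ccl9 lead in GMPs, and Ccl9 leads in both 416b libraries.

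The gain of PLZF was examined in 416b cells. Of the 9 genes, 8 averaged 10 or more normalized counts over both libraries, and all 8 were lower with PLZF-Flag. A log2 ratio of -1 or below was found for 5 of these 8 genes, against 0.912% of the 11836 genes at that level, and a ratio of 1 or above for 0 of the 8, against 0.498%. The 95% exact binomial interval, which covers counting error only, lay below 0 for 6 of the 8 genes, against 15.9% of genes, and above 0 for 0 of the 8, against 16.1%. The median log2 ratio was -1.20 over the 8 genes and -0.0001 over all genes. Since the genes were picked with these ratios known, nothing is read from these counts, and a single library per condition allows no test.

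Ratios of low counts were spread more widely. Between 10 and 100 normalized counts, 5.65% of genes had a log2 ratio of -1 or below, and 3 of 4 members in this range (Ccl3, Ccl5 and Gpr65) did. From 100 upwards, 0.109% or 11 of 10119 genes did, and 2 of 4 members (Ccl9 and Ccr1) were among them.

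Of the 5 chemokines among the 9 genes Ccl9 had the most reads, with 7059 for the Empty vector and 1196 for PLZF-Flag. Its normalized count was 4272 without and 1976 with PLZF-Flag, which is 2.16-fold lower (counting interval 2.03 to 2.30). The log2 ratio was -1.11 (-1.20 to -1.02), and Ccl9 thus had the narrowest interval of the 9 genes.

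Ccl3 had 40 reads with the Empty vector and 2 with PLZF-Flag, where 14.7 reads would stand for no change. Its log2 ratio was -2.55 with a wide interval from -4.23 to -0.87. Ccl5 had 89 and 13 reads and a log2 ratio of -1.29 (-2.20 to -0.47). Both chemokines were lower with PLZF-Flag by more than counting error, although only 2 reads stand behind the PLZF-Flag value of Ccl3.

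Ccl4, which lies beside Ccl3 and is often induced with it, had 27 and 8 reads. Its log2 ratio of -0.29 (-1.51 to 0.82) spanned 0, and no change could be detected with so few reads. Ccl6 had 5 reads in each library and a mean of 5.64 normalized counts, which is under the minimum of 10. Its log2 ratio was 1.20 with an interval from -0.53 to 2.76, and no direction can be read from it.

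Among the receptors, Ccr1 had 313 reads with the Empty vector and 37 with PLZF-Flag. Its normalized counts of 189 and 61.1 gave a log2 ratio of -1.62 (-2.14 to -1.13), a 3.10-fold lower level (interval 2.20 to 4.48). Cxcr4 had 1463 and 438 reads. Its normalized counts of 885 and 724 gave a small log2 ratio of -0.29 (-0.45 to -0.14), 1.22-fold lower in PLZF-Flag. Ccrl2 had 252.67 reads with the Empty vector, which is not a whole number, and 73 with PLZF-Flag. Its log2 ratio of -0.34 (-0.73 to 0.04) reached 0.

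Gpr65 had 32 reads with the Empty vector and 2 with PLZF-Flag. Its log2 ratio was -2.24 (-3.93 to -0.54). The interval of its fold, 1.49 to 50.5, shows how little 2 reads fix the size. Adding 10 to each normalized count, not 1, gave log2 ratios of -1.14 for Gpr65 and -1.36 for Ccl3.

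**Figure D2:**
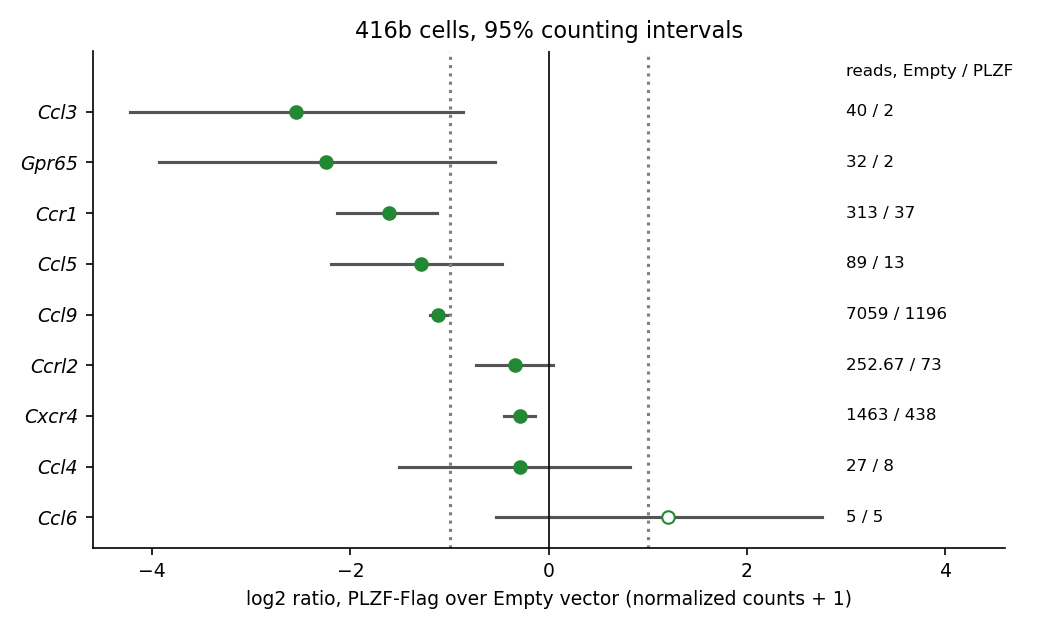
Log2 ratio (x axis, PLZF-Flag over Empty vector, 1 added to each normalized count) for each of the 9 genes, with 95% exact binomial intervals (bars) that cover counting error only and the reads of both libraries at the right. The open circle is Ccl6, with a mean under 10, and dotted lines mark -1 and 1. Ccl3, Gpr65, Ccr1, Ccl5 and Ccl9 lie left of -1, and Ccrl2, Cxcr4 and Ccl4 lie between -1 and 0.

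The 4 genes from Ccr1 to Ccr2 on chromosome 9 (123962124 to 124113557) form a row of CC chemokine receptor genes, singled out after their values were seen. Ccr1l1 had 29 reads with the Empty vector and 4 with PLZF-Flag (-1.29 as log2 ratio, interval -2.83 to 0.09). Ccr3, the receptor of eosinophils, had 23 and 4 reads (-0.97, -2.54 to 0.44). Ccr2, which binds CCL2 and marks monocytes, had 238 and 49 reads (-0.82, -1.29 to -0.38). All 4 log2 ratios were below 0 in these 2 libraries, and the intervals of 2 of them (Ccr1 and Ccr2) lay below 0, as did those of 15.9% of all genes. Nothing is read from these counts, since the row was chosen with them known.

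The other chemokine system genes were taken from 8 lists that hold 115 genes, of which 68 averaged 10 or more normalized counts in 416b cells. A log2 ratio of -1 or below was found for 1 of these 68 (Ccr1l1), against 0.912% of all genes, and of 1 or above for 0, against 0.498%, and the median was -0.02. The counting interval lay below 0 for 16 genes and above 0 for 10, against 15.9% and 16.1% of all genes. Of 7 other chemokine receptors at that level, 1 passed -1, and their median log2 ratio was -0.50. Cxcr2, the neutrophil receptor for CXCL chemokines, had 13306 and 5031 reads and a log2 ratio of 0.05 (-0.0011 to 0.09). The 3 CC chemokine ligands at that level had a median of -0.06, with Ccl7 at 98 and 22 reads (-0.69, -1.41 to -0.03). Ptafr, the receptor of platelet-activating factor, had 132 and 27 reads (-0.83, -1.46 to -0.23). The highest ratios among genes with more than 30 reads were those of Cxcr3, at 20 and 15 reads (0.98, -0.03 to 1.95), Pik3r5, a regulator of PI3K gamma (0.27, -0.03 to 0.56), and Relb, an NF-kappaB subunit (0.23, -0.13 to 0.59), and all 3 intervals reached below 0. The 14 NF-kappaB factors and inducible genes had a median of -0.01, with 0 genes past 1 in either direction.

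The loss of PLZF was examined in GMPs. No gene passed an adjusted p of 0.08 in limma with Benjamini-Hochberg adjustment over 20531 genes (0.0% of genes), the lowest adjusted p was 0.299, and 2028 genes had an unadjusted p under 0.05. The study reported down- and upregulated genes for this contrast from its own analysis, so the lack of calls holds for the limma fit only. Of the 9 genes, 8 had at least 10 normalized counts in at least 2 libraries and were in this fit, and Ccl5 was not. Both Zbtb16lu/lu libraries lay above both WT libraries for 3 of the 8 (Ccl6, Ccl9 and Ccrl2), against 21.7% of all genes. They lay below both WT libraries for 1 of the 8 (Ccr1), against 22.1% of all genes. The other 4 genes overlapped between genotypes. The median log2 fold change was 0.10 over the 8 genes and -0.01 over all genes. Since GMPs are sorted populations read in bulk, fewer cells of a type and less RNA per cell cannot be told apart. With 2 libraries per genotype an exact two-sided permutation test of one gene cannot go below 0.333.

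The libraries are numbered so that library 1 of each genotype carries the same date in its column name. WT library 2 had the highest level of the platelet transcripts Pf4 and Ppbp. Its Pf4 (a chemokine of platelets) was 1306 normalized counts, against 216 in WT library 1 and 96.6 and 486 in Zbtb16lu/lu, and its Ppbp was 212 against 2.98, 5.14 and 16.1. Over 6 megakaryocyte and erythroid markers the summed level was 2243 and 4522 in the WT libraries against 1663 and 2963 in Zbtb16lu/lu, so it was higher in library 2 of both genotypes. Of the 6, Pf4, Itga2b and Klf1 were highest in WT library 2, Gp1bb and Epor in Zbtb16lu/lu library 2, and Gata1 was about equal in all but Zbtb16lu/lu library 1, where it was lowest. The 10 mature neutrophil markers summed to 13372 and 5965 in the WT libraries against 9923 and 20262 in Zbtb16lu/lu, and most of this sum was S100a8 and S100a9, which overlapped between genotypes. Of the 10, 7 were higher in Zbtb16lu/lu without overlap (70.0%, against 21.7% of all genes) and had an unadjusted p under 0.05 in limma, 0 passed after adjustment, and the median log2 fold change was 2.22. Ltf, a protein of neutrophil granules, had 56.7 and 11.6 normalized counts in the WT libraries against 305 and 846 in Zbtb16lu/lu. Mmp9, a neutrophil protease, had 15.9 and 0 against 65.8 and 76.3. Ly6g, among the 7, had 2.98 and 4.82 against 19.5 and 21.1 and passed the filter only through Zbtb16lu/lu. Mmp9 and Retnlg also needed a Zbtb16lu/lu library to pass, so the filter bears on the neutrophil counts. The lineage depletion used antibodies to Gr-1 and Cd11b. Of 9 tested monocyte and macrophage markers, 7 were also higher in Zbtb16lu/lu without overlap (77.8%, against 21.7% of all genes). Of these 7, C1qa (7.96 and 8.68 in WT against 14.4 and 14.05) passed the filter only through Zbtb16lu/lu. Of the GMP markers 3 of 9 were higher and 1 lower, of the dendritic cell markers 1 of 3 tested was higher, of the B cell markers the 1 tested was higher, and of the 4 HSC (haematopoietic stem cell) markers 0 differed without overlap. The part of these marker groups in the values given here was not tested.

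Ccl9 had 5678 and 8881 normalized counts in the WT libraries against 10753 and 12815 in Zbtb16lu/lu. The WT mean was 7279 ± 2265 (SD, n = 2) and the Zbtb16lu/lu mean 11784 ± 1458 (SD, n = 2), 1.62-fold higher, and the groups did not overlap. The log2 fold change was 0.73, and it was 0.92 between the libraries of the shared date and 0.53 between the others. The WT libraries differed 1.56-fold between themselves, a larger spread than that of 97.3% of the 1618 genes within a factor of 2 of its level.

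Ccl6, beside Ccl9 on chromosome 11, had 199.9 and 216 normalized counts in the WT libraries against 225 and 249 in Zbtb16lu/lu. The groups did not overlap, and the log2 fold change was 0.19, with 0.17 and 0.20 between libraries of the shared date and of the other dates. The gap between the highest WT and the lowest Zbtb16lu/lu value was smaller than the gap within either genotype.

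Ccl3 had 256 and 440 normalized counts in the WT libraries against 511 and 345 in Zbtb16lu/lu, so the genotypes overlapped. Between the libraries of the shared date its log2 fold change was 1.00, and between the other libraries it was -0.35. Ccl4 had 58.7 and 207 in the WT libraries against 94.6 and 88.3 in Zbtb16lu/lu. Its direction also turned, from 0.68 at the shared date to -1.22 between the other libraries. The WT libraries of Ccl4 differed 3.53-fold, more than 98.0% of 3390 genes of like level, and the higher value was in WT library 2, where Pf4 and Ppbp were highest too. Other genes, among them Rgs1 and Rgs2, were also highest in WT library 2, and no link to Ccl4 was tested.

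Ccl5 was near the limit of detection in GMPs. It had 2.98 and 6.75 normalized counts in the WT libraries against 2.06 and 2.01 in Zbtb16lu/lu, a few reads in each library. Both Zbtb16lu/lu values lay below both WT values, and without the filter on low values 5 members, Ccl5 included, would lie without overlap, but no direction is read from so few reads. T and NK cells are known for abundant CCL5. The summed level of their 9 markers, 11092 to 11740, was nearly all Nkg7 (11056 to 11712), which GMPs also express. The other 8 were at 19.5 or less in every library. Of these 8, Cd3d (2.98 and 3.86 in WT against 19.5 and 12.0 in Zbtb16lu/lu), Klrb1c (1.99 and 0.964 against 13.4 and 9.03) and Cd4 (3.98 and 4.82 against 9.25 and 9.03) lay higher in Zbtb16lu/lu without overlap, and the other 5 overlapped. Of the 9, only Cd3d and Nkg7 passed the filter, Cd3d through Zbtb16lu/lu alone. Cd3g had 2.98 and 4.82 in WT against 3.08 and 0, and Il2rb 8.95 and 3.86 against 9.25 and 4.01. Cd3e and Gzma were at 0 in at least 2 libraries and never above 2.98. These are a few reads per gene, and no difference is read from them.

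Of the receptors, Ccr1 had 175 and 146 normalized counts in the WT libraries against 120 and 116 in Zbtb16lu/lu. The groups did not overlap, and the log2 fold change was -0.43, with -0.54 at the shared date and -0.32 between the other libraries. The 8 basophil, mast cell and eosinophil markers were also lower without overlap in 3 cases (Prss34, Ms4a2 and Gata2) and higher in 0 (37.5% lower, against 22.1% of all genes), with a median log2 fold change of -0.30 and an unadjusted p under 0.05 for 2. Their summed level was 23092 and 16006 in the WT libraries against 12760 and 17377 in Zbtb16lu/lu and overlapped, and their part in the values of Ccr1 was not tested. Ccrl2 had 219.8 and 211 in the WT libraries against 309.5 and 255 in Zbtb16lu/lu, a log2 fold change of 0.38 (0.49 at the shared date and 0.27 between the others). Its genotypes did not overlap either.

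Cxcr4 had 8265 and 7315 normalized counts in the WT libraries against 7935 and 7840 in Zbtb16lu/lu. Both Zbtb16lu/lu values lay between the WT values, and the log2 fold change was 0.02. Gpr65 had 994 and 998 in the WT libraries against 847 and 1038 in Zbtb16lu/lu, which enclosed the WT values, with a log2 fold change of -0.09. Cxcr4, the most abundant receptor of the 9 genes, differed by less between genotypes than between the WT libraries.

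Without WT library 2, the log2 fold changes of Ccl4 and Ccl3 were 0.63 and 0.71, in place of -0.27 and 0.32. Those of Ccl9, Ccl6, Ccrl2 and Ccr1 were 1.05, 0.24, 0.35 and -0.56 and kept their sign. Those of Cxcr4 and Gpr65 were -0.07 and -0.08. Without WT library 1 in its place, Ccl4 was at -1.17 and Ccl3 at -0.07. Ccl9, Ccl6, Ccrl2 and Ccr1 were then at 0.40, 0.13, 0.41 and -0.30, and Cxcr4 and Gpr65 at 0.11 and -0.09. Leaving out 1 WT library or the other thus moved Ccl9 between 0.40 and 1.05 and turned the direction of Ccl3, Ccl4 and Cxcr4.

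**Figure D3:**
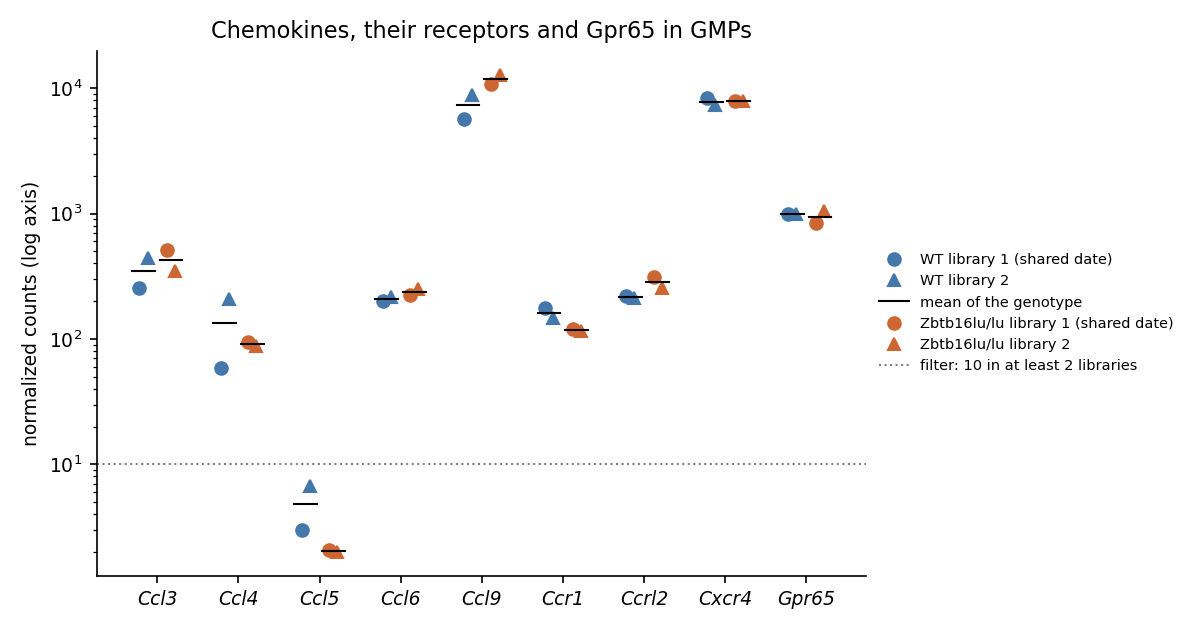
Normalized counts in GMPs (log axis) for the 9 genes. Each point is 1 library (blue WT, orange Zbtb16lu/lu, circles for the libraries of the shared date), black lines are genotype means and the dotted line is the filter of 10. Zbtb16lu/lu lies above WT for Ccl6, Ccl9 and Ccrl2 and below WT for Ccr1, and Ccl5 lies under the filter.

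Set side by side, Ccl9 and Ccr1 were both lower in 416b cells with PLZF-Flag and lay on opposite sides in GMPs. Ccl9 had a log2 ratio of -1.11 with PLZF gain and a log2 fold change of 0.73 with its loss. Ccr1 had -1.62 and -0.43. Ccl3 and Gpr65 had the lowest ratios in 416b cells (-2.55 and -2.24) and genotypes that overlapped in GMPs. Of 11242 genes in both tables, 80 had a 416b log2 ratio of -1 or below. In Zbtb16lu/lu GMPs 29 of these were higher and 9 lower without overlap. In both directions 11 genes, Ccl9 included, were at least as far as Ccl9. Since Ccl9 was picked with both values known, nothing is read from its rank.

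**Figure D4:**
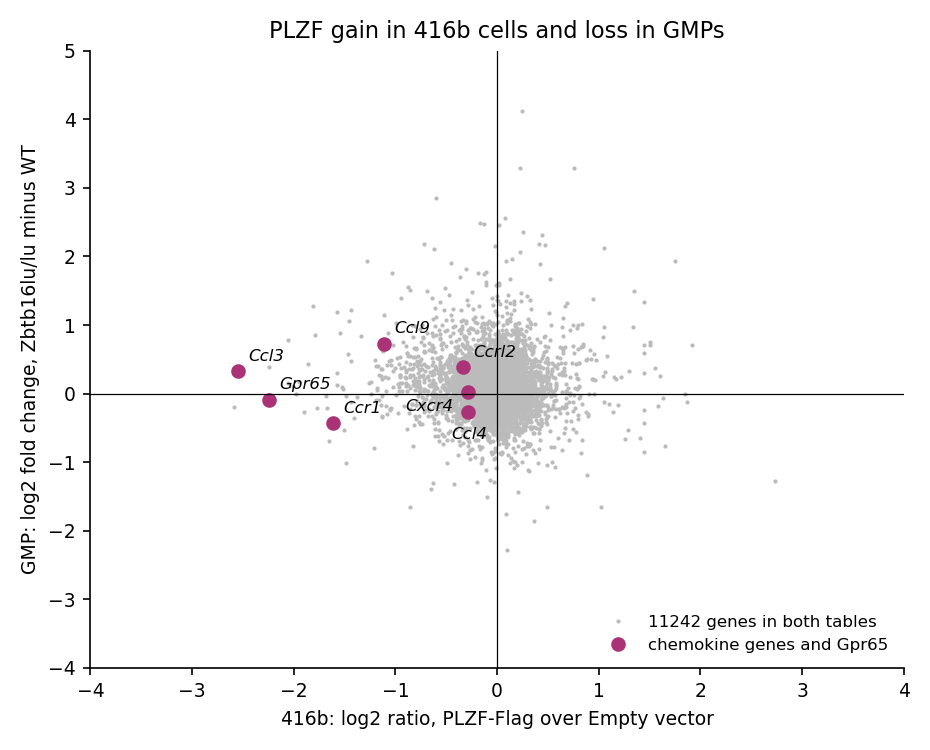
Log2 ratio in 416b cells (x axis, PLZF-Flag over Empty vector) against log2 fold change in GMPs (y axis, Zbtb16lu/lu minus WT). Grey points are the 11242 genes measured in both tables and purple points are 7 of the 9 genes, since Ccl5 and Ccl6 each miss a filter. Ccl9 lies in the upper left and Ccr1 in the lower left.

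The genes whose pattern was most like that of a member were sought over 5 values, the 4 GMP log2 values centred on their mean and the 416b log2 ratio, among genes that average 100 or more in both tables. The measure is the root mean square difference. For Ccl9 they were Dhrs3 (0.14) and Lair1 (0.19). For Ccr1 they were Abcg2 (0.32) and Masp2 (0.41), and Ccr1 was in turn the gene most like Gpr65 (0.35). Cxcr4 was nearest to 9330020H09Rik (0.02) and Pepd (0.02), and Ccrl2 to Chkb (0.06) and Nod1 (0.06). Ccl4 was nearest to Zfp991 (0.17) and Arrdc3 (0.19). The nearest to Ccl3 was Card14 (0.61). Few genes of the level searched had a 416b ratio as low as those of Ccl3 and Gpr65, which each rest on 2 PLZF-Flag reads, so nothing is read from their distances.

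Of the 115 other chemokine system genes, 78 were in the GMP fit and 0 passed the adjusted threshold in limma. At an unadjusted p under 0.05 there were 11 higher and 2 lower genes in Zbtb16lu/lu, against 2028 of 20531 over all genes in both directions. Both Zbtb16lu/lu libraries lay above WT for 29 of the 78 (37.2%, against 21.7% of all genes) and below WT for 7 (8.97%, against 22.1%). The 29 include Fpr2, Ackr2 and C5ar1, which passed the filter only through Zbtb16lu/lu, where they are high. Fpr2 and Ackr2 are also among the 11. The median log2 fold change of the 78 genes was 0.13, against -0.01 over all genes. These lists were written with results of these data known, and no test of the lists was made.

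By role, the 31 tested signalling genes held 13 higher and 3 lower genes without overlap, the 15 tested NF-kappaB genes 7 and 0, and the 7 other chemokine receptors 3 and 0. The 11 tested receptors for other chemoattractants held 5 higher and 2 lower genes. The 3 CC chemokine ligands held 0 and 1, the 6 CXC and other ligands 0 and 0, the 2 atypical receptors 1 and 0, and the 3 other proton-sensing receptors 0 and 1. Over all genes 21.7% lay higher and 22.1% lower. The atypical receptor (Ackr2) and the chemoattractant receptors Fpr2 and C5ar1 passed the filter only through Zbtb16lu/lu. Nothing is read from these small counts. The higher receptors included Ccr2 (5083 and 6681 in WT, 6949 and 8263 in Zbtb16lu/lu) and Cx3cr1 (700.0 and 1082 in WT, 1207 and 1124 in Zbtb16lu/lu), which mark monocytes. Over the 11 monocyte and macrophage markers, which include these 2 receptors, the summed level was 43297 and 52270 in the WT libraries against 60638 and 64212 in Zbtb16lu/lu, and the part of such cells in these values was not tested.

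The largest log2 fold changes among genes without overlap were found at low counts. The first 3 genes passed the filter only through Zbtb16lu/lu, where they are high, so the filter bears on their rank and on the counts of higher genes that include them. Fpr2, a formyl peptide receptor, had 1.99 and 0 normalized counts in the WT libraries against 10.3 and 11.04 in Zbtb16lu/lu (2.75, SE 1.05, limma adjusted p 0.468). Ackr2, a scavenger of CC chemokines, had 0.994 and 3.86 in the WT libraries against 12.3 and 14.1 in Zbtb16lu/lu (2.19, SE 0.881, adjusted p 0.481). C5ar1, the receptor of complement C5a, had 9.94 and 0.964 in the WT libraries against 14.4 and 16.1 in Zbtb16lu/lu (1.81, SE 0.948, adjusted p 0.558). In the other direction, Cmklr1, which like CCRL2 binds chemerin, had 24.9 and 28.9 in the WT libraries against 12.3 and 8.03 in Zbtb16lu/lu (-1.34, SE 0.566, adjusted p 0.494). Pik3r5 (-0.37, SE 0.224, adjusted p 0.591) and Gnb1, a G protein beta subunit (-0.26, SE 0.111, adjusted p 0.499), were next. None of these differences passed the adjusted threshold.

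**Figure D5:**
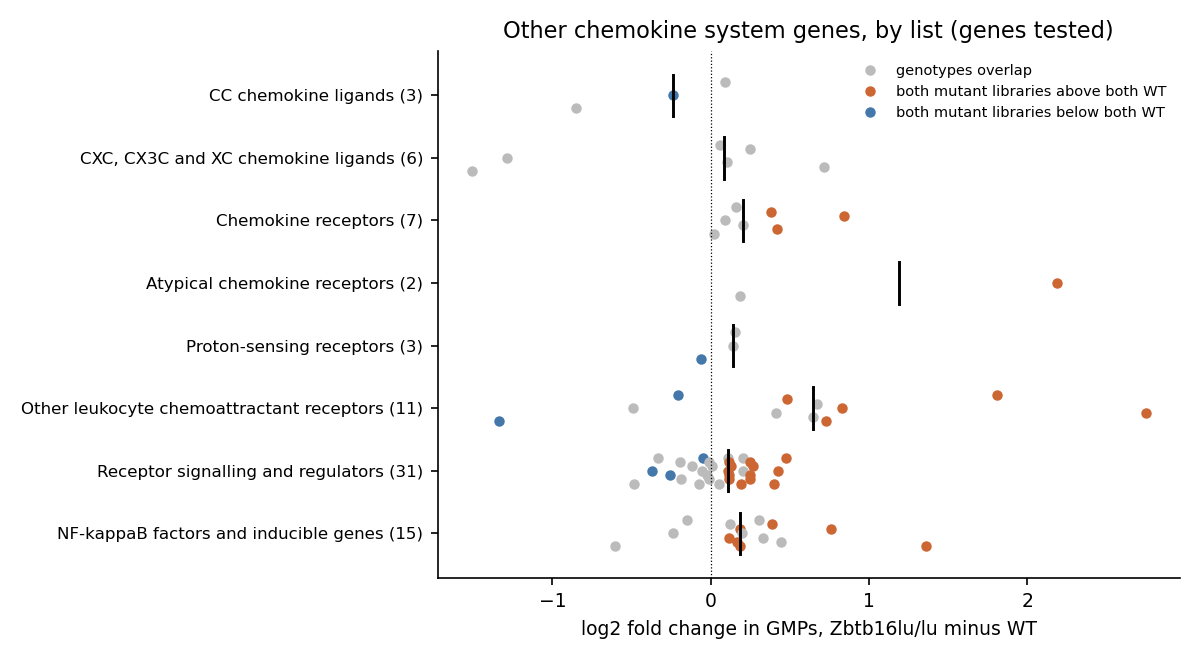
Log2 fold change in GMPs (x axis, Zbtb16lu/lu minus WT) of the 78 tested genes of the 8 lists, with the number of genes tested in parentheses. Each point is 1 gene, coloured by whether the genotypes overlap, its height within a row is only for legibility, and black lines are list medians. Of the 78 genes, 29 are higher and 7 lower without overlap, and 0 passed the adjusted threshold.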

How the data were processed

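RNA-seq of 416b cells (1 library per condition) and GMPs (2 libraries per genotype) was analysed. The authors used Subread for mapping to mm10, featureCounts for counting per gene and DESeq2 for size factors, so the deposited signal values are normalized counts. The tables also hold the log2 values, fold changes and p-values of the study, which were not used. The methods state 3 independent RNA extractions for GMPs, listed under biological replicates, and the table holds 2 libraries per genotype. Whether they came from separate mice is not stated, so p-values measure the spread between libraries, which may be technical.

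In 416b cells, reads were recovered by dividing by the value of 1 read, which gave whole numbers (within 0.02) for 84.8% of Empty vector values and 85.5% of PLZF-Flag values. Log2 ratios used a pseudocount of 1 and 95% Clopper-Pearson intervals, which cover counting error only. Without replicates no count test could be run, and genes with 3 or fewer reads in both libraries got no ratio. Genes with a mean of at least 10 were counted. In GMPs, log2(normalized count + 1) was fitted with limma (3.58.1, R 4.3.3) with an intensity trend and Benjamini-Hochberg adjustment, at the study's threshold of 0.08, for genes with at least 10 in at least 2 libraries. A fold change on this scale understates the change of low genes. No count test was run in GMPs. Both procedures were tested on simulated data. Python 3.11.15, numpy 2.4.6, pandas 2.3.3 and scipy 1.17.1 were used for the rest. Exon lengths and positions came from GENCODE M21.

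The members and lists were chosen with earlier results of these data known. The genes named are the 9 members, Zbtb16, and from the 8 pooled lists those called in GMPs, the 3 with the largest fold change in each direction without overlap and the 3 with the largest 416b ratio in each direction with more than 30 reads. Ccl7, Ccr2, Ccr3, Cxcr2, Cx3cr1, Pf4, Ppbp and the single markers of cell types were named after their values were seen. 2 genes of the planned lists are not reported here and were left out of their counts. The 9 marker lists were read as counts of genes without overlap and, for some lists, sums or medians. In each of them 0 genes were called in GMPs. Alternatives were pseudocounts, filters, scalings, no trend, a stricter threshold (0.05) and fits without each library in turn.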

Additional observations from a re-analysis of the deposited data

How the results depend on the processing

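No paired analysis was possible because library columns are named by date and the genotypes share only 1 date, so the other libraries form no pair. The libraries of the shared date and of the other dates are compared in the report.

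In GMPs, 0 genes were called under every pseudocount, filter, scaling, trend and threshold tried, with the lowest adjusted p from 0.209 to 0.615. Leaving out 1 library leaves 1 residual degree of freedom and assumes that the lone library varies like the other genotype. The number of genes called in limma was then 4662 without WT library 1, 2749 without WT library 2, 64 without Zbtb16lu/lu library 1 and 1 without Zbtb16lu/lu library 2. Of the other chemokine system genes 25, 19, 0 and 0 were called in the same order. The cause was not tested. The number of members whose genotypes did not overlap was 4 with all libraries and ranged from 5 to 7 when 1 library was left out, 7 being without WT library 2. Fewer libraries overlap less often. The share of all 20531 genes without overlap was 43.9% with all libraries, 83.5% and 78.2% without WT library 1 or 2, and 62.4% and 63.6% without Zbtb16lu/lu library 1 or 2.

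In 416b cells, the number of genes past a log2 ratio of 1 in either direction was 167. It was 51 with a pseudocount of 10, 431 with no filter and 15 with a mean of at least 100, since low counts leave or enter. The number of members past 1 was 5, and 2 with a mean of at least 100, which leaves 4 members. Of 123 other values of single members, 117 moved by less than their own spread or counting interval. This count does not measure stability. In GMPs a filter leaves a member's fold change as it is, and leaving out 1 of 2 libraries cannot move it past this spread. The 6 counted as moved were Ccl3 and Ccl4 by date and Gpr65, which was 0.06 without Zbtb16lu/lu library 1 and -0.23 without library 2. Gpr65 thereby only reached its spread of 0.146. The 4 members without overlap in GMPs kept their sign under the GMP alternatives, and the 6 with an interval off 0 in 416b cells kept theirs under the 416b alternatives, although a pseudocount of 10 moved Ccl3 from -2.55 to -1.36 and Gpr65 from -2.24 to -1.14. In GMPs, Ccl3 was -0.07 without WT library 1 and Cxcr4 -0.07 without WT library 2. Only 2 reads stand behind the PLZF-Flag values of Ccl3 and Gpr65.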
